A study of Mus musculus with 4 samples.

Results

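Cartilage genes were followed in the frontal and parietal bones of the mouse skull vault. The set holds 10 of the 23946 genes in the deposited tables, namely *Sox9*, *Sox5*, *Sox6*, *Acan*, *Comp*, *Matn1*, *Matn3*, *Hapln1*, *Mia* and *Chad*. They were taken by name as genes of cartilage, and *Mia* was selected on its high FPKM in wild-type parietal bone, so its contrasts with that library are given as a description. RNA was taken at postnatal day 21 from wild-type mice and from mice heterozygous for the loss of *Twist1* (*Twist1*+/-), all on a C57BL/6J background, with 12 mice of each strain. Libraries of poly(A) RNA were sequenced for 4 groups, which are wild-type frontal bone, wild-type parietal bone, *Twist1*+/- frontal bone and *Twist1*+/- parietal bone. Each group is 1 library here, and the labels do not say how the mice were shared among libraries. There is thus no replicate check on any difference below, no test was possible, and neighbouring levels cannot be ordered against a spread.

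Cartilage is built by chondrocytes, which surround themselves with a matrix of collagen fibrils and hydrated proteoglycan. The transcription factor Sox9, acting with Sox5 and Sox6, switches on the genes of that matrix. Aggrecan (*Acan*) is its main proteoglycan, link protein (*Hapln1*) fastens aggrecan to hyaluronan, matrilins (*Matn1*, *Matn3*), cartilage oligomeric matrix protein (*Comp*) and chondroadherin (*Chad*) tie matrix components together, and *Mia* encodes a small protein secreted by chondrocytes. Frontal and parietal bones ossify within membrane, without a cartilage template, although cartilage lies next to them at the base and sides of the skull. Several of these genes are also used elsewhere, with *Comp* and *Chad* expressed in tendon or bone, *Sox6* in erythroid cells, and *Acan* and *Hapln1* in the matrix around neurons.

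The libraries carried the marks of bone. Osterix (*Sp7*) stood between 56.9 and 108 FPKM and osteocalcin (*Bglap*) between 5220 and 7982 FPKM, where FPKM is mapped fragments scaled by transcript length and library size and can be set side by side between genes. *Twist1* itself was 59.0 FPKM in frontal and 52.5 in parietal bone of wild-type mice, and 30.4 and 50.7 in the same bones labelled *Twist1*+/-. The last value is close to that of wild-type parietal bone, so this sample is called the library labelled *Twist1*+/- parietal, and directions drawn from it rest on its label. Low values fell in steps, from which the worth of 1 read was taken. For a transcript of 1 kilobase, 1 read was worth about 0.0255 FPKM in frontal and 0.042 in parietal bone of wild-type mice. It was worth 0.034 and 0.0415 FPKM in the frontal and parietal libraries labelled *Twist1*+/-. For a longer transcript 1 read is worth less, in proportion to the length. A value of 0 cannot be read as absence in these tables, since the main bone collagen genes *Col1a1* (5595 FPKM) and *Col1a2* (6326 FPKM) have a value above 0 only for the wild-type parietal library.

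Most of the cartilage genes had their highest value in wild-type parietal bone. There were 7 of the 10, namely *Sox5*, *Acan*, *Matn1*, *Matn3*, *Hapln1*, *Chad* and *Mia*, of which *Mia* was selected for that value, and the count is given as a description. Without *Matn3*, which stayed under 1 FPKM, there were 6 of 9 members, beside 35.5% of 14760 genes at 1 FPKM in some library. Levels in the 4 libraries ran from 0 for *Matn1* to 49.8 FPKM for *Mia*. Their summed level was 35.4 FPKM in frontal and 104 in parietal bone of wild-type mice, and 32.5 and 49.4 in the frontal and parietal libraries labelled *Twist1*+/-. The high sum in wild-type parietal bone was carried mainly by *Mia* and *Chad*. In bulk bone, fewer cells of a type and less RNA per cell cannot be told apart.

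**Figure D1:**
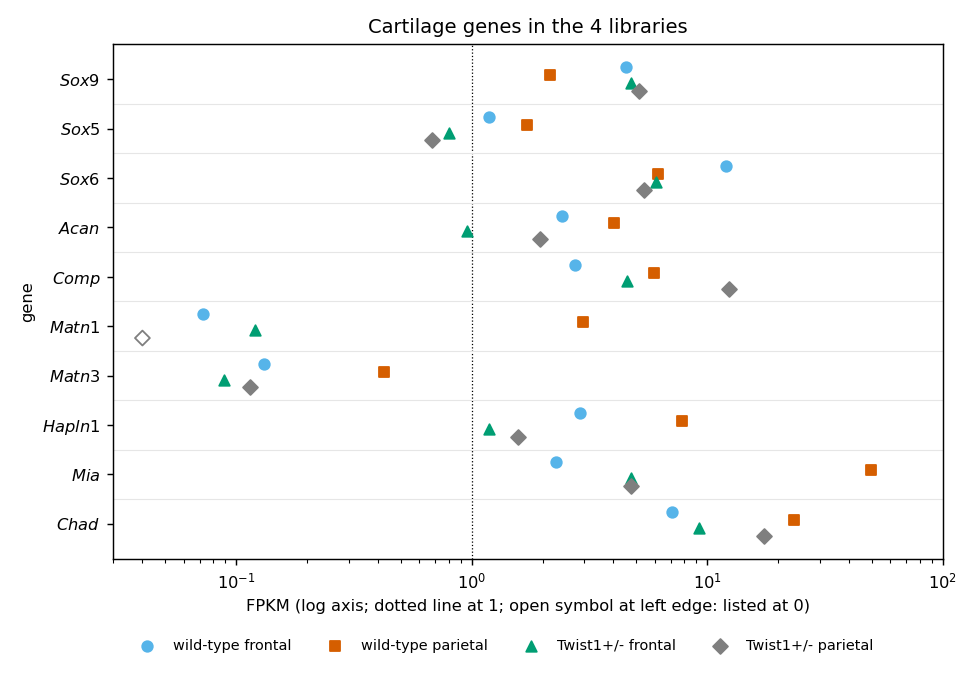
FPKM (log axis) of the 10 cartilage genes, with 1 symbol for each of the 4 libraries; the dotted line marks 1 FPKM and the open symbol a value listed at 0. *Mia*, *Matn1*, *Hapln1* and *Chad* lie farthest right in wild-type parietal bone (orange squares), while *Sox9* lies farthest left there.

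The regulators were ordered differently from each other. *Sox9*, the factor required for chondrocyte formation (mm9, chr11:112643538-112649074, plus strand, 3 exons), was 4.54 FPKM in frontal and 2.15 in parietal bone of wild-type mice, and 4.74 and 5.12 in the frontal and parietal libraries labelled *Twist1*+/-. It was thus lowest in wild-type parietal bone and nearly level in the other 3 libraries, which lay 2.11-fold to 2.38-fold above it at the ends of their range. *Sox5* (chr6:143776945-144730497, minus strand, 15 exons) had the opposite order, with 1.18 FPKM in frontal and 1.72 in parietal bone of wild-type mice, and 0.802 and 0.679 in the frontal and parietal libraries labelled *Twist1*+/-. *Sox6* (chr7:122614858-123182258, minus strand, 16 exons) was 12.0 FPKM in wild-type frontal bone against 6.21 in wild-type parietal bone and 6.06 and 5.39 in the frontal and parietal libraries labelled *Twist1*+/-. It was the highest of the 10 genes in wild-type frontal bone, and the only member with its highest value in that library. A list of 9 erythroid genes was also highest there, with a summed level of 1597 FPKM against 622, 788 and 768 FPKM in the same order, and its part in the *Sox6* values was not tested. None of the 3 regulators passed a 3-fold difference in any comparison.

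Aggrecan and its link protein had the same order of libraries. *Acan* (chr7:86198369-86259985, plus strand, 17 exons) was 2.42 FPKM in frontal and 4.0 in parietal bone of wild-type mice, and 0.957 and 1.95 in the frontal and parietal libraries labelled *Twist1*+/-. *Hapln1* (chr13:89680241-89751437, plus strand, 5 exons) was 2.90 FPKM in frontal and 7.83 in parietal bone of wild-type mice, and 1.18 and 1.57 in the frontal and parietal libraries labelled *Twist1*+/-. Both genes were highest in wild-type parietal bone and lowest in *Twist1*+/- frontal bone. *Acan* was 2.53-fold and *Hapln1* 2.46-fold lower in *Twist1*+/- than in wild-type frontal bone, and 2.05-fold and 4.97-fold lower in the library labelled *Twist1*+/- parietal than in wild-type parietal bone.

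The matrilins were scarce outside wild-type parietal bone. *Matn1*, a marker of mature chondrocytes (chr4:130500300-130511390, plus strand, 8 exons), was 0.0720 FPKM in frontal and 2.96 in parietal bone of wild-type mice and 0.12 in *Twist1*+/- frontal bone, and its value for the library labelled *Twist1*+/- parietal is 0. These values stand on about 6, 141, 7 and 0 reads, computed from the steps above and the length of a GENCODE transcript. *Matn3* (chr12:8954735-8978834, plus strand, 8 exons) was 0.131 FPKM in frontal and 0.426 in parietal bone of wild-type mice, and 0.0891 and 0.114 in the frontal and parietal libraries labelled *Twist1*+/-, or about 16, 31, 8 and 8 reads. *Matn3* was thus also highest in wild-type parietal bone, but it stayed under 1 FPKM in every library and is left out of the counts of genes that passed the 3-fold rule.

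*Comp* and *Chad* were higher in the parietal library of each genotype. *Comp* (chr8:72897447-72905964, plus strand, 20 exons) was 2.74 FPKM in frontal and 5.94 in parietal bone of wild-type mice, and 4.56 and 12.4 in the frontal and parietal libraries labelled *Twist1*+/-. *Chad* (chr11:94426361-94430441, plus strand, 4 exons) was 7.11, 23.4, 9.22 and 17.5 FPKM in the same order. The parietal library exceeded the frontal library of the same genotype by 2.17-fold and 2.72-fold for *Comp* and by 3.30-fold and 1.90-fold for *Chad*. *Chad* lies across *Acsf2* on the opposite strand, which stood between 4.80 and 5.33 FPKM in the 4 libraries.

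*Mia* had the widest gap between wild-type parietal bone and the rest among members at or above 1 FPKM in every library. It was 2.28 FPKM in frontal and 49.8 in parietal bone of wild-type mice, and 4.77 and 4.73 in the frontal and parietal libraries labelled *Twist1*+/-, or about 51, 678, 80 and 65 reads. In wild-type parietal bone it stood at the 93.1 percentile of all genes, against 49.5, 58.7 and 60.9 in the other libraries. The wild-type parietal value was 21.9-fold that of wild-type frontal bone and 10.5-fold that of the library labelled *Twist1*+/- parietal, and it is the value for which *Mia* was chosen. Among the libraries that played no part in that choice, *Twist1*+/- frontal bone was 2.09-fold above wild-type frontal bone, and in *Twist1*+/- mice the parietal library was 0.993 of the frontal.

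The annotated *Mia* gene (chr7:27953449-27966176, minus strand, named *Mia1* in GENCODE) has a 4-exon transcript of 572 bases, of which 396 are coding. Its span also holds *Rab4b* on the same strand, through a longer read-through transcript. *Rab4b*, a gene of vesicle traffic, was 29.4, 37.5, 31.2 and 46.8 FPKM in wild-type frontal and parietal bone and then the same bones labelled *Twist1*+/-. Its highest value was in another library than that of *Mia*. No window of 75 bases, the read length, in a transcript of the 10 genes occurred in a coding transcript of another gene.

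In the parietal bones, the cartilage genes that passed the 3-fold rule were all lower in the library labelled *Twist1*+/-. A gene is called when its values differ by more than 3-fold and the higher is at least 1 FPKM, or when it is listed at 0 against at least 1 FPKM. Of 9 members at 1 FPKM, *Matn1*, *Hapln1* and *Mia* were called lower and none was called higher, beside 2.94% of 13914 genes called lower, 5.25% called higher and 8.19% called in all. *Mia* was selected on its wild-type parietal value and *Matn1* reached 1 FPKM only there, so nothing is read from this count against those shares. The call of *Matn1* also rests on a value listed at 0, which is not evidence of absence here. With *Mia* left out, 2 members were called. *Mia* had a log2 ratio of -3.40 and *Hapln1* of -2.31, and *Matn1* has no ratio because it is listed at 0. The other members ranged from *Sox5*, 2.53-fold lower, to *Sox9* and *Comp*, 2.38-fold and 2.09-fold higher, with *Acan* and *Chad* lower by less than the rule. *Sox6* had a log2 ratio of -0.20, which became 0.19 with the libraries scaled to *Gapdh*. The median difference of the 10 genes was -0.55 on the log2(FPKM + 1) scale, which compresses low values, and -0.40 with *Mia* left out, against -0.05 over all genes at 1 FPKM.

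The genes called in the parietal comparison are shown with the 250 bases before their RefSeq start (build GRCm38.p6), since they were called together. Capitals mark the letters ACAANG, searched as a loose form of the core recognised by Sox proteins, and CANNTG, the E-box bound by Twist1 and related factors. Each was searched on both strands, and they do not overlap each other in these windows. The regions are chr4:130944135-130944384 (plus strand) for *Matn1*, chr13:89540386-89540635 (plus strand) for *Hapln1* and chr7:27181150-27181399 (minus strand) for *Mia*.
Matn1: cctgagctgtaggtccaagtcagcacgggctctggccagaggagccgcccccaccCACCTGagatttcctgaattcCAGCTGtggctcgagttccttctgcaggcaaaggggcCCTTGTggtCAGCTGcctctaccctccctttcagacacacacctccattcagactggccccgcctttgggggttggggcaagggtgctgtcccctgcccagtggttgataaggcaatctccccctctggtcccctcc
Hapln1: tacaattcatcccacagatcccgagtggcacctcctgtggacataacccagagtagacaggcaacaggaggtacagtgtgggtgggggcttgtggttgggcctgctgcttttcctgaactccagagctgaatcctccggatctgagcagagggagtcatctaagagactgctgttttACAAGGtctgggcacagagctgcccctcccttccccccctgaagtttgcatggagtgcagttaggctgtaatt
Mia: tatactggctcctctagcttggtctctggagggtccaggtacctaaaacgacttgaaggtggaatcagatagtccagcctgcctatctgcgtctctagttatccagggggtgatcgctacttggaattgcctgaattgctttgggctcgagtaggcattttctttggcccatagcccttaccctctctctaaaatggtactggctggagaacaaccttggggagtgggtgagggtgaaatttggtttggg
In the *Matn1* window ACAANG begins 137 bases before the start and CANNTG at 195, 174 and 128 bases. In the *Hapln1* window the letters ACAANG begin 73 bases before the start, and the *Mia* window holds neither motif. Of the 10 genes, 8 had a promoter entry (*Sox9* and *Comp* had none), and ACAANG was found for *Sox5*, *Sox6*, *Matn1*, *Matn3* and *Hapln1* and CANNTG for *Sox6*, *Acan*, *Matn1* and *Chad*. Of all 32841 promoter windows of this length, 36.3% held ACAANG and 66.2% held CANNTG, so the letters describe these windows and mark no site.

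**Figure D2:**
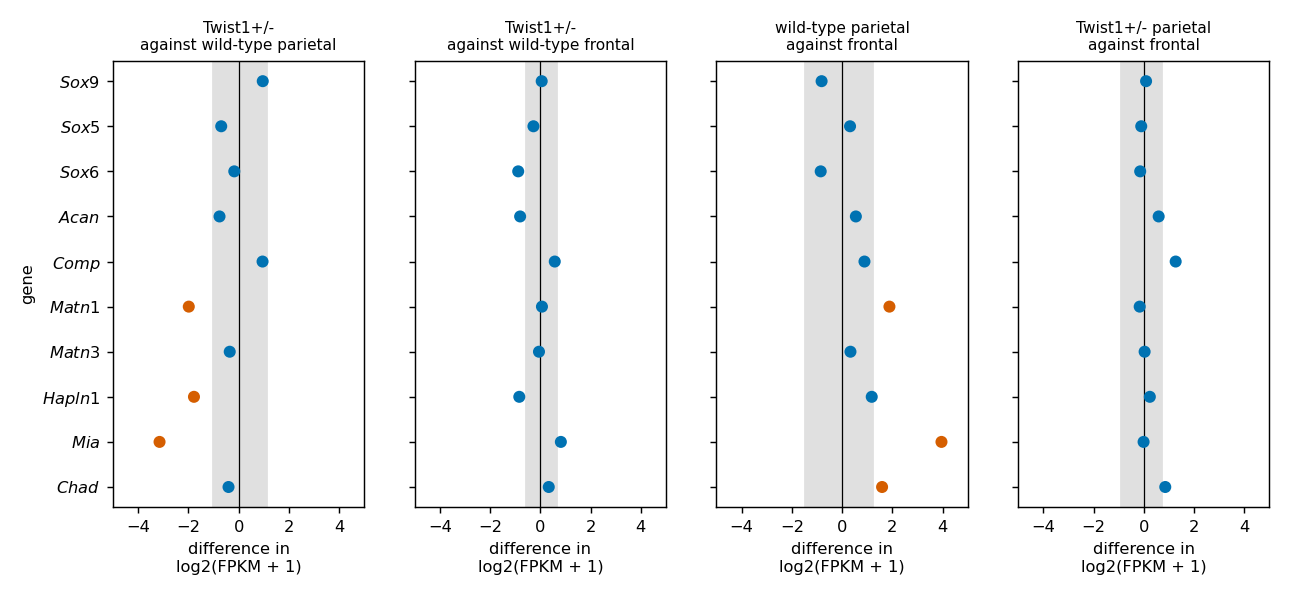
Difference in log2(FPKM + 1) of each cartilage gene in the 4 comparisons, with the library named first minus the other, orange for genes past the 3-fold rule and blue for the rest; the grey band holds the central 90% of genes at 1 FPKM or more. *Matn1*, *Hapln1* and *Mia* lie left of the band in the parietal comparison of genotypes, and no gene is orange in the frontal comparison or between the *Twist1*+/- bones.

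Between the frontal bones no cartilage gene passed the rule. Of 8 members at 1 FPKM, 0 were called, beside 3.89% of 14341 genes (3.17% higher and 0.725% lower in *Twist1*+/-). This count is close to that share, so nothing is read from it. The largest ratios were those of *Acan* and *Hapln1*, lower in *Twist1*+/- frontal bone, then *Mia*, higher, and *Sox6*, 1.98-fold lower. By difference in log2(FPKM + 1), *Sox6*, *Hapln1* and *Acan* stood at the 1.55, 1.88 and 2.06 percentiles of genes at 1 FPKM. *Mia* stood at the 96.2 percentile, so these genes lay outside the central 90% of genes. The median difference of the 10 genes was -0.00 on the log2(FPKM + 1) scale, against -0.03 over all genes at 1 FPKM. This comparison shares no library with that of the parietal bones. *Hapln1* had a log2 ratio of -1.30 between the frontal bones and -2.31 between the parietal bones, *Acan* of -1.34 and -1.04, *Chad* of 0.38 and -0.42, and *Mia* of 1.07 and -3.40, and the difference between bones could not be tested.

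Between the wild-type bones, 3 matrix members passed the rule and no regulator did. Of 9 members at 1 FPKM, *Matn1*, *Mia* and *Chad* were called higher in parietal bone and 0 lower, beside 4.07% of 14214 genes called higher, 9.2% called lower and 13.3% called in all. The same limit holds, since *Mia* was selected on the value that gives its call and *Matn1* reached 1 FPKM only in parietal bone, and 2 members were called with *Mia* left out. *Matn1* was 41.1-fold higher, though its frontal value stands on about 6 reads. *Mia* was 21.9-fold higher and *Chad* 3.30-fold. Under the rule were *Matn3* at 3.24-fold but below 1 FPKM, *Hapln1* at 2.70-fold, *Comp* at 2.17-fold, *Acan* at 1.65-fold and *Sox5* at 1.45-fold, whereas *Sox9* was 2.11-fold and *Sox6* 1.93-fold lower in parietal bone. The median difference of the 10 genes was 0.72 on the log2(FPKM + 1) scale, and 0.55 with *Mia* left out, against -0.01 over all genes. This comparison shares wild-type parietal bone with that of the parietal genotypes, so a high value in that library enters both.

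Between the bones of *Twist1*+/- mice, 0 of 7 members at 1 FPKM were called, beside 4.09% of 14305 genes (0.846% higher and 3.24% lower in the parietal library). This count is close to that share, so nothing is read from it. *Comp* came closest, 2.72-fold higher in the library labelled *Twist1*+/- parietal, followed by *Acan* at 2.04-fold and *Chad* at 1.90-fold. *Hapln1* was 1.34-fold higher, *Sox6* was 0.890 of its frontal value, and *Sox5* was 0.848 of it, a log2 ratio of -0.24 that became 0.18 once the length trend was subtracted. The median difference of the 10 genes was 0.06 on the log2(FPKM + 1) scale, against -0.03 over all genes.

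The trend of the ratios with transcript properties touched some of these values. Between the wild-type bones, the ratio of parietal to frontal FPKM declined with transcript length across 11525 genes (Spearman's rho -0.32), from a median log2 ratio of 0.90 in the shortest of 20 groups to -0.28 in the longest. *Mia* is in the shortest group, and its log2 ratio of 4.45 was 3.55 once the median of its group was subtracted. *Chad* went from 1.72 to 1.46, under the 3-fold rule, and *Hapln1* from 1.43 to 1.71, past it. *Chad* also lost its call when the libraries were scaled to the same *Gapdh* (1.28) or to the same summed FPKM (1.22).

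In the parietal comparison the ratio of the library labelled *Twist1*+/- to wild type increased with GC content across 11521 genes (rho 0.56), from a median log2 ratio of -0.59 in the group of lowest GC to 0.63 in the highest. *Hapln1*, with 38.0% GC, is in the lowest group and went from -2.31 to -1.72, still past the rule. *Mia* went from -3.40 to -3.62 and *Comp* from 1.06 to 0.57. *Sox9* went from 1.25 to 1.46, and it passed the rule at 1.64 only with the libraries scaled to *Gapdh*, whose own log2 ratio was -0.39 in this comparison and 0.44 between the wild-type bones.

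**Figure D3:**
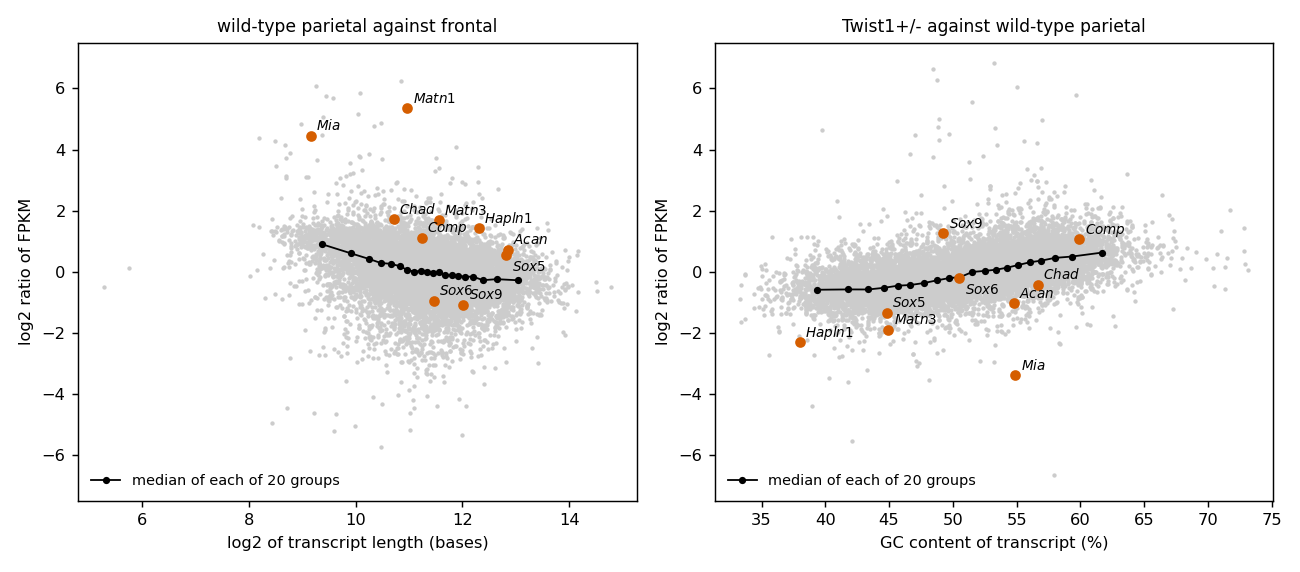
Log2 ratio of FPKM against transcript length (left, wild-type parietal over frontal) and GC content (right, the library labelled *Twist1*+/- over wild-type parietal); grey points are genes at 1 FPKM or more in both libraries, orange points the cartilage genes above 0 in both, and the black line joins the medians of 20 groups of genes. *Mia* and *Matn1* lie far above the line at left, and *Mia* and *Hapln1* lie below it at right.

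A further 20 genes of the cartilage matrix, none of them among the 10, followed wild-type parietal bone in part. Between the wild-type bones, 10 of the 20 were called higher in parietal bone and 1 lower. Over all 14214 genes at 1 FPKM the shares were 4.07% and 9.2%. The median difference of the list was 1.02 on the log2(FPKM + 1) scale. *Snorc* (3110079O15Rik in the tables), a small membrane proteoglycan of chondrocytes, was 0.0761 FPKM in frontal and 34.4 in parietal bone of wild-type mice, and 0 and 0.354 in the frontal and parietal libraries labelled *Twist1*+/-. *Lect1*, now *Cnmd*, which encodes the vessel-inhibiting chondromodulin, was 0.611, 15.4, 0.971 and 1.32 FPKM in the same order. *Col9a1*, a chain of the collagen that coats cartilage fibrils, was 0.633, 8.61, 0.678 and 1.13 FPKM, and *Clec3a* was 0.0352, 5.03, 0.0648 and 0.0519 FPKM. All 4 were near or under 1 FPKM outside wild-type parietal bone. Of the 20, *Snorc*, *Clec3a*, *Ucma* and *Otor* reached 1 FPKM only there, and the list was chosen with earlier results known. Nothing is therefore read from the count against those shares.

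The same list in the parietal comparison of genotypes had 7 genes called lower in the library labelled *Twist1*+/- and 1 higher. Over all 13914 genes at 1 FPKM the shares were 2.94% and 5.25%, and the same limit holds for this count. The median difference of the list was -0.32 on that scale. The 7 were *Snorc*, *Lect1*, *Clec3a*, *Ucma*, *Col9a1*, *Col9a2* and *Otor*. *Col2a1*, the fibril collagen that defines cartilage, was 1.49, 8.61, 3.65 and 7.57 FPKM in wild-type frontal and parietal bone and then the same bones labelled *Twist1*+/-, so it was called between the wild-type bones and not between the parietal bones. The gene that went the other way was *Col11a2*, at 337, 79.9, 236 and 305 FPKM, which bone also expresses. *Col11a1* was also lowest in wild-type parietal bone, at 114, 62.2, 97.7 and 86.5 FPKM. These abundant collagens set the sum of the whole list, which was 499, 348, 385 and 492 FPKM and lowest in wild-type parietal bone, whereas the other 18 genes summed to 48.0, 206, 51.8 and 101 FPKM in the same order. Between the frontal bones only *Epyc* of the list was called, at 0.745 FPKM in wild-type and 2.47 in *Twist1*+/-, and between the *Twist1*+/- bones only *Cilp2*, at 6.30 in frontal and 19.8 in parietal.

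Genes at or above 1 FPKM in wild-type parietal bone and more than 3 times each other library numbered 178 of 14760, or 1.21%. Among them were *Matn1* and *Mia*, 2 of the 9 members at 1 FPKM, which restates how *Mia* was selected, and 6 of the 20 matrix genes, *Col9a1*, *Lect1*, *Ucma*, *Snorc*, *Clec3a* and *Otor*. *Matn1*, *Ucma*, *Snorc*, *Clec3a* and *Otor* reached 1 FPKM only in that library, so nothing is read from these counts against that share. *Otor* belongs to the same gene family as *Mia* and was 0.0348 FPKM in frontal and 2.24 in parietal bone of wild-type mice, and 0.216 and 0.190 in the frontal and parietal libraries labelled *Twist1*+/-. No member and no matrix gene of the list stood apart by the same measure in the other 3 libraries, a measure met by 0.481% of genes for wild-type frontal, 0.894% for *Twist1*+/- frontal and 0.325% for the library labelled *Twist1*+/- parietal.

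**Figure D4:**
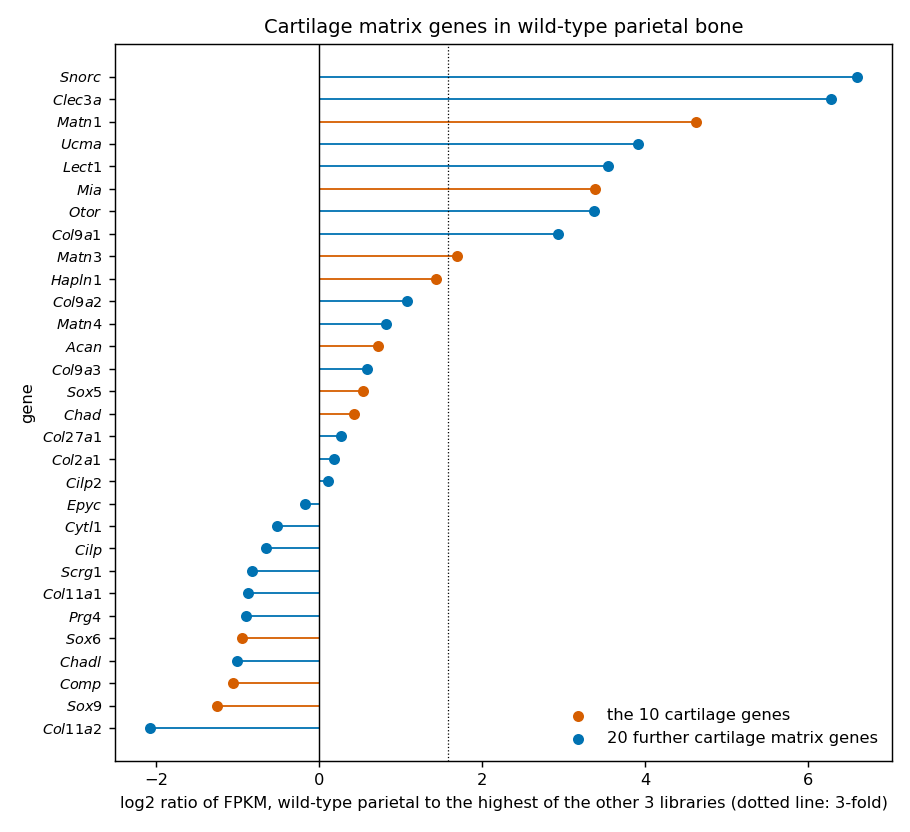
Log2 ratio of FPKM in wild-type parietal bone to the highest of the other 3 libraries for the 10 cartilage genes (orange) and 20 further cartilage matrix genes (blue); the dotted line marks 3-fold. *Snorc*, *Clec3a*, *Matn1*, *Ucma*, *Lect1*, *Mia*, *Otor* and *Col9a1* lie well past the line, *Matn3* passes it under 1 FPKM, and *Sox9*, *Comp* and *Col11a2* lie to the left of 0.

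Genes of the growth plate and of hypertrophic chondrocytes, many of which osteoblasts also use, had 4 of 11 called higher in parietal than in frontal wild-type bone and 0 lower. Over all genes 4.07% were called higher and 9.2% lower. Between these libraries *Col10a1* reached 1 FPKM only in parietal bone. *Col10a1*, the collagen of hypertrophic cartilage, was 0.485, 2.60, 0.643 and 1.09 FPKM in wild-type frontal and parietal bone and then the same bones labelled *Twist1*+/-. *Mmp13*, a collagenase of late chondrocytes and osteoblasts, was 290, 1409, 253 and 470 FPKM, *Panx3* was 12.7, 47.2, 22.9 and 19.6, and *Ibsp* was 278, 869, 388 and 703. In the parietal comparison of genotypes, 1 of 12 was called, *Ihh*, higher in the library labelled *Twist1*+/- at 1.53 against 0.273 FPKM. Over all genes 8.19% were called there. None was called between the frontal bones (9 at 1 FPKM) or between the *Twist1*+/- bones (12 at 1 FPKM), beside 3.89% and 4.09% of all genes.

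Of 12 further regulators of chondrogenesis, 7 reached 1 FPKM in some library and 2 were called in any comparison. *Sox8*, a relative of *Sox9*, was the 1 of 5 called between the wild-type bones, at 3.88 FPKM in frontal and 1.28 in parietal bone, the same direction as *Sox9*. *Pitx1*, a limb and jaw patterning factor, was called higher in both genotype comparisons, at 0.804 against 2.60 FPKM in the frontal and 0.106 against 2.63 FPKM in the parietal bones. None of 7 was called between the *Twist1*+/- bones. Of all genes, 13.3% were called between the wild-type bones, 8.19% between the parietal, 3.89% between the frontal and 4.09% between the *Twist1*+/- bones. Of 13 genes that make or turn over proteoglycan chains, the sulfotransferase *Chst3* alone was called, at 8.04 FPKM in wild-type frontal and 1.56 in wild-type parietal bone, where its direction was opposite to that of *Acan*. The most abundant of them, *Ugdh* and *Chpf*, were 56.9 and 21.2 FPKM in wild-type parietal bone, where the library labelled *Twist1*+/- parietal had 45.6 and 53.8.

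The paralogs of the members did not share a direction. Between the wild-type bones, 3 of 17 were called higher in parietal bone (*Matn4*, *Thbs4* and *Otor*) and 5 lower (*Ncan*, *Bcan*, *Hapln4*, *Sox8* and *Sox10*). Over all genes the shares were 4.07% and 9.2%. The lower ones include the brain proteoglycans brevican and neurocan, with *Bcan* at 24.8, 2.96, 10.8 and 9.0 FPKM and *Ncan* at 14.1, 1.84, 4.26 and 2.27 FPKM in wild-type frontal and parietal bone and then the same bones labelled *Twist1*+/-. *Matn4* was 12.0, 67.3, 13.9 and 38.3 FPKM, so it followed *Matn1* between the wild-type bones. In the parietal comparison of genotypes, *Bcan* and *Hapln4* were called higher in the library labelled *Twist1*+/- and *Vcan* and *Otor* lower, beside 5.25% and 2.94% of all genes. *Ncan* was the 1 of 16 called between the frontal bones, and none of 16 was called between the *Twist1*+/- bones, beside 3.89% and 4.09% of all genes.

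Markers of other tissues also moved with the libraries. The 10 skeletal muscle genes summed to 114 FPKM in frontal and 3773 in parietal bone of wild-type mice, and 1424 and 1814 in the frontal and parietal libraries labelled *Twist1*+/-. Of them, 9 of 9 at 1 FPKM were called higher in wild-type parietal than frontal bone, beside 4.07% of all genes. In *Twist1*+/- against wild-type frontal bone 10 of 10 were called higher, beside 3.17% of all genes. Between the parietal bones 1 was called higher and 1 lower in the library labelled *Twist1*+/-, beside 5.25% and 2.94% of all genes. The 10 tendon and fibrous tissue genes summed to 750, 1544, 511 and 725 FPKM in the same order of libraries, and tenomodulin (*Tnmd*), a tendon gene of the same family as *Lect1*, was 21.3, 142, 10.3 and 29.2 FPKM. Tendon genes called were 3 of 10 higher in wild-type parietal than frontal bone and 2 of 10 lower in the library labelled *Twist1*+/- parietal than in wild-type parietal bone. Over all genes these shares were 4.07% and 2.94%. The part of muscle and tendon in the cartilage values was not tested.

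The summed levels of nasal, melanocyte, gland and erythroid genes were lowest in wild-type parietal bone. Nasal and airway genes summed to 271, 22.6, 1342 and 1518 FPKM in the same order of libraries, with *Scgb1a1* at 0 in all 4. Of those at 1 FPKM, 8 of 8 were called higher in the library labelled *Twist1*+/- parietal than in wild-type parietal bone, beside 5.25% of all genes. *Obp1a*, *Obp2a*, *Foxj1*, *Cdh1* and *Krt8* were under 1 FPKM in wild-type parietal bone. Brain and meninges genes summed to 2541, 1238, 887 and 1124 FPKM. Of them, 9 of 10 were called lower in wild-type parietal than frontal bone, beside 9.2% of all genes. In the library labelled *Twist1*+/- parietal 7 of 10 were called higher than in wild-type parietal bone, beside 5.25%. The growth factor gene *Igf2* went the other way in both comparisons, at 231, 1127, 215 and 364 FPKM, and the other 9 genes summed to 2310, 111, 672 and 761 FPKM. *Ptgds* alone was 1975, 52.8, 327 and 428 FPKM of these sums, most of the sum in wild-type frontal bone. Melanocyte and Schwann cell genes, which bear on *Mia* because melanocytic cells can express it, summed to 80.1, 53.9, 97.1 and 74.5 FPKM, with *Tyr* at 0 in all 4 libraries, *Mlana* at 0 in the frontal libraries and *S100b* highest in wild-type parietal bone, at 24.6, 37.6, 34.9 and 36.4 FPKM. Mammary, sweat and salivary gland genes summed to 260, 55.3, 295 and 167 FPKM. Most of each sum was *Ltf*, at 250, 50.4, 269 and 140 FPKM, so these sums mainly describe that gene. The part of melanocyte, Schwann and gland cells in the *Mia* values was not tested. Of the erythroid genes, 8 of 9 were called lower in wild-type parietal than frontal bone, beside 9.2% of all genes. The 10 osteoblast and osteocyte genes summed to 14912, 21401, 13244 and 19891 FPKM, of which *Spp1* alone was 4107, 12239, 4579 and 6724 FPKM. Of these 10 genes, 1 was called between the wild-type bones, beside 13.3% of all genes.

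**Figure D5:**
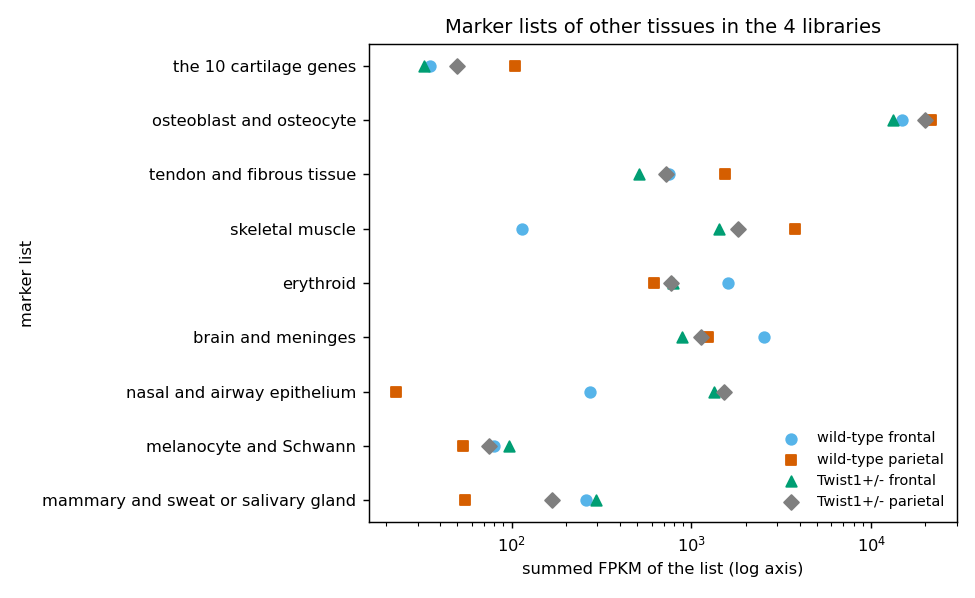
Summed FPKM (log axis) of the 10 cartilage genes and of marker lists of other tissues, with 1 symbol for each of the 4 libraries. By sum, wild-type parietal bone (orange squares) is highest for cartilage, osteoblast, muscle and tendon genes and lowest for erythroid, nasal, melanocyte and gland genes. Singly, 6 of the 10 osteoblast and osteocyte genes were highest in the library labelled *Twist1*+/- parietal, beside 21.9% of all genes at 1 FPKM in some library.

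The genes whose pattern came nearest to that of *Mia* were ranked among 7963 genes at or above 10 FPKM in some library, by the distance between their log2(FPKM + 1) values after the mean of the 4 libraries was subtracted. In order they were *Actc1*, *Lect1*, *Stfa1*, *Casq2* and *Mir3102*, at distances of 0.392 to 0.778. The ranking follows the high wild-type parietal value for which *Mia* was selected, so it is given only as a description. The cardiac actin gene *Actc1* was 0.225, 21.7, 1.53 and 0.828 FPKM in wild-type frontal and parietal bone and then the same bones labelled *Twist1*+/-, and *Casq2*, a calcium-binding protein of muscle, was 0.673, 15.9, 1.44 and 2.48. The cysteine protease inhibitor *Stfa1* was 47.8, 704, 104 and 63.6 FPKM. *Lect1* was the gene of the cartilage lists among the 5, where 15 of the 44 genes of those lists reached 10 FPKM and could be ranked. *Acan* was nearest to *Fbln1*, *Sgce*, *Igsf10*, *Kdelc1* (now *Poglut2*) and *Pdia6*, at distances of 0.101 to 0.210, with *Fbln1*, a fibulin of connective tissue, at 20.4, 32.8, 12.5 and 18.3 FPKM.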

How the data were processed

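RNA of frontal and parietal bones was sequenced as 75-base single-end reads in 4 libraries, assigned to groups by their labels. Per the authors' methods, stranded poly(A) libraries were aligned to mm9 with STAR 2.4.2a using the iGenomes annotation, and the deposited values are FPKM computed by the authors with Cuffdiff (Cufflinks 2.2.1, R 3.2.2); the scaling option is not given in the sources used here. FPKM states no depth, so no interval is given, and reads behind low values are approximate. The methods mention replicates, and 1 library per group is analysed here.

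Ratios of FPKM were formed in Python 3.11.15 (pandas 2.3.3, numpy 2.4.6, scipy 1.17.1, matplotlib 3.10.9). A gene was called past 3-fold with at least 1 FPKM in the higher library. A simulated check of this rule changed only genes well above that floor, so it does not cover calls at low levels or replicate spread. Differences in log2(FPKM + 1) use a pseudocount of 1. The genes named are all 10 members, *Twist1*, *Sp7*, *Bglap* and *Col2a1*, from each list at most 4 called genes per comparison with the largest differences (or, with none called, the 2 most abundant), and the 5 genes nearest to *Mia* and to *Acan*. Other genes named were chosen after their values were seen. The members and lists were chosen with earlier results of these data known. Positions, lengths and GC content came from GENCODE M1 on mm9, where 19342 of 23946 genes had a coding transcript, 80.8%. Promoter sequences came from RefSeq.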

Additional observations from a re-analysis of the deposited data

How the results depend on the processing

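No paired analysis was possible because each group has 1 library, and no library could be left out. With a 2-fold threshold the members called were 7 between the parietal bones, 3 between the frontal bones, 6 between the wild-type bones and 2 between the *Twist1*+/- bones, and a floor of 10 FPKM left 1 between the parietal bones, *Mia*. With no floor 1 member was called between the *Twist1*+/- bones. For the matrix, growth plate and regulator lists together, 10 genes were called between the parietal bones (3 with a floor of 10 FPKM, 18 at 2-fold) and 16 between the wild-type bones (8 with that floor). Between the frontal bones 2 were called, which became 0 with a pseudocount of 1 or a floor of 10 FPKM, 1 with a pseudocount of 0.1, 5 with no floor and 4 at 2-fold. Between the *Twist1*+/- bones 1 was called, which became 0 with a pseudocount of 1, scaling to summed FPKM or subtraction of the GC trend, 3 with no floor and 9 at 2-fold. The median member difference between the frontal bones, -0.00, became 0.0084 after scaling to the median ratio. With a pseudocount of 0.1, 3 of the 5 genes nearest to *Mia* and 1 of the 5 nearest to *Acan* were kept.

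The log2 ratios of single members were recomputed in 266 ways, of which 246 kept their direction and side of the threshold, 12 lost the 3-fold difference, 2 gained it, and 6, all below 3-fold, changed sign (*Sox9* in 3, *Sox6*, *Sox5* and *Mia* in 1 each). Subtraction of the length trend was chosen after seeing the data. The cause of each shift was not tested. *Matn1* and *Matn3* rest on few reads outside wild-type parietal bone, which limits their ratios.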
